A study of Homo sapiens with 6 samples.

Results

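The SOX genes encode transcription factors that share a DNA-binding domain, the HMG box, with the sex-determining factor SRY. The 10 genes described here are SOX1, SOX3, SOX21, SOX4, SOX11, SOX12, SOX8, SOX9, SOX13 and SOX15, that is, members of the family other than SOX2. They were picked by name from the 53712 gene names of the count table, with their differences between UNC1999 and UNC2400 already known, so those differences are given as a description and nothing is inferred from them. All 10 are in the table, and 9 of them passed the filter on low counts (SOX1 did not).

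The cells were H9, a single established line of human embryonic stem cells, cultured in RSeT medium. This medium is meant to support a naive-type pluripotent state, and whether these cells were in it was not assessed. The UNC1999 libraries came from cells given 2.5 µM UNC1999, an inhibitor of the methyltransferases EZH2 and EZH1 of Polycomb repressive complex 2. The UNC2400 libraries came from cells given 2.5 µM UNC2400, an analog of UNC1999 with low activity. Both groups also received 10 nM DZNep, a blocker of the enzyme that clears S-adenosylhomocysteine, and 5 nM TSA, a deacetylase inhibitor that acts on histones, so no group here lacks these agents. Treatment began 24 h after passage and lasted 48 h. There were 3 poly(A)-selected libraries per compound, with 33522942 to 34481593 counts in UNC1999 and 29699441 to 42345448 counts in UNC2400. Pluripotency markers were abundant in every library: their 12 genes summed to 8361 to 9508 CPM (read counts scaled to library size with edgeR's TMM factors) in UNC1999 and 11070 to 11210 CPM in UNC2400. Of these 12 genes, 1 was called higher (PRDM14) and 6 lower in UNC1999, among them DNMT3B and POU5F1, by the test described with the SOX results. Over all tested genes 26.8% were called higher and 25.9% lower. Of 9 definitive endoderm markers, 1 reached 1 CPM on average in UNC2400, and of 10 trophoblast markers, 1 did.

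SOX proteins bind the minor groove of DNA and bend it, and they usually act on a site together with a partner factor. They fall into subgroups by sequence: SOXB1 factors (SOX1, SOX2, SOX3) maintain neural progenitors, SOXB2 factors such as SOX21 oppose them as repressors, and SOXC factors (SOX4, SOX11, SOX12) act in differentiating neurons and many other immature cells. SOXE factors (SOX8, SOX9, SOX10) work in neural crest, glia and, for SOX9, cartilage and testis. In pluripotent cells SOX2 is the member that works with POU5F1, and many of the other SOX genes are textbook targets of Polycomb repression.

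Promoter sequence was available for 6 of the 10 genes (SOX1, SOX3, SOX21, SOX4, SOX12 and SOX13), from RefSeq on build GRCh38.p14. This build differs from hg19, the build named for the counts. The 250 bases before the annotated start are shown for SOX21 (chr13:94712546-94712795, minus strand), SOX3 (chrX:140505070-140505319, minus strand) and SOX12 (chr20:325302-325551, plus strand). SOX21 and SOX3 had large differences between the compounds and SOX12 had none that was called. Each reads 5′ to 3′ toward the start, with CG dinucleotides in capitals.

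SOX21: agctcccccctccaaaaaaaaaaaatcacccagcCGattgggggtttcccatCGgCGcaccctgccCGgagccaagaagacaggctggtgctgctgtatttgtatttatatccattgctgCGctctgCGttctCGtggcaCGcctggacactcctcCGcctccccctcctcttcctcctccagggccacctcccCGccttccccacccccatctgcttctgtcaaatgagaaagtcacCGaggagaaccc

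SOX3: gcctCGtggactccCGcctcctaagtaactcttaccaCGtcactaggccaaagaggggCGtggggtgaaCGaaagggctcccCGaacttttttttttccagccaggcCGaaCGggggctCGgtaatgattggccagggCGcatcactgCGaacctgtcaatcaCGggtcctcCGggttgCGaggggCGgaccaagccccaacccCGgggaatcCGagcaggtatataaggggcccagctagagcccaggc

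SOX12: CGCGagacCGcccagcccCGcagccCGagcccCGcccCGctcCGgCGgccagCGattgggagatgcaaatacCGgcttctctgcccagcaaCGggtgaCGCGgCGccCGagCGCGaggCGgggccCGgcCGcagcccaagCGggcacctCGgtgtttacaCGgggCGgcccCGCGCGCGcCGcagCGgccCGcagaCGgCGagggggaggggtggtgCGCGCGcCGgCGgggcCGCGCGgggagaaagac

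The SOX12 window is the densest in CG, with 42 CG dinucleotides, a number that 1.38% of the 35116 promoter windows in the table reach. The windows of SOX1 and SOX3 hold 31 and 17, that of SOX21 holds 11, the median of all windows, and those of SOX4 and SOX13 hold 8 each. CG density thus ranged widely among the 6. A CCAAT box (CCAAT on either strand) was found in the windows of SOX3, SOX21, SOX4 and SOX12 and is in 32% of all windows. TATAAA on either strand was found in that of SOX21 alone among the 6 and is in 10.7% of all windows. In the SOX21 window it reads TTTATA, so TATAAA lies on the strand opposite to SOX21. The window of SOX21-AS1, an RNA gene on that strand described further on, holds the motif too. The SOX3 window holds the near match TATATAAG close to its start. Whether any of these acts as a TATA box was not tested. The SOX-type motifs ACAATG and ACAAAG were found on neither strand in any of the 6. They are in 9.29% and 13.7% of all windows.

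SOX2 was the most abundant gene of the family in both groups. Per kilobase of exon, SOX2 averaged 180.0 ± 9.4 CPM in UNC1999 and 180.9 ± 8.11 CPM in UNC2400 (SD, n = 3 each). The 10 genes together summed to 156 ± 4.55 in UNC1999 and 119 ± 2.7 in UNC2400 on the same scale (SD, n = 3 each). Their sum over the SOX2 level was 0.794, 0.900 and 0.914 in UNC1999 replicates 1 to 3, against 0.640, 0.683 and 0.650 in UNC2400 replicates 1 to 3. All UNC1999 libraries lay above all UNC2400 libraries in this ratio, which does not depend on library scaling. Most of the rise in the sum was SOX21, at 15.7 in UNC2400 and 40.3 in UNC1999 on this scale. The ratio was not computed without SOX21, so the separation is not read as a trait of the 10 genes together. Exon lengths came from GENCODE release 29, with all transcripts of a gene joined, so levels per length are approximate.

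Among the 10 genes in UNC2400, SOX4 was the most abundant per length at 41.9 ± 1.44, followed by SOX12 at 33.4 ± 1.17 and SOX21 at 15.7 ± 0.681 CPM per kilobase (SD, n = 3 each). SOX13, SOX11 and SOX15 followed at 7.85 ± 0.212, 7.70 ± 0.142 and 7.18 ± 0.129, where the libraries of SOX13 and SOX11 overlap. SOX8 and SOX3 were at 2.33 ± 0.0415 and 2.32 ± 0.15 and also overlap, and SOX9 was at 0.525 ± 0.127 (SD, n = 3 each). SOX1 was near 0. In UNC1999 SOX21 had rank 3 in the whole family at 40.3 ± 1.33, above SOX12 at 33.0 ± 0.74, and the libraries of these genes did not overlap. SOX3 in UNC1999, at 4.74 ± 1.07, lay above SOX8, at 2.78 ± 0.322 CPM per kilobase (SD, n = 3 each).

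**Figure D1:**
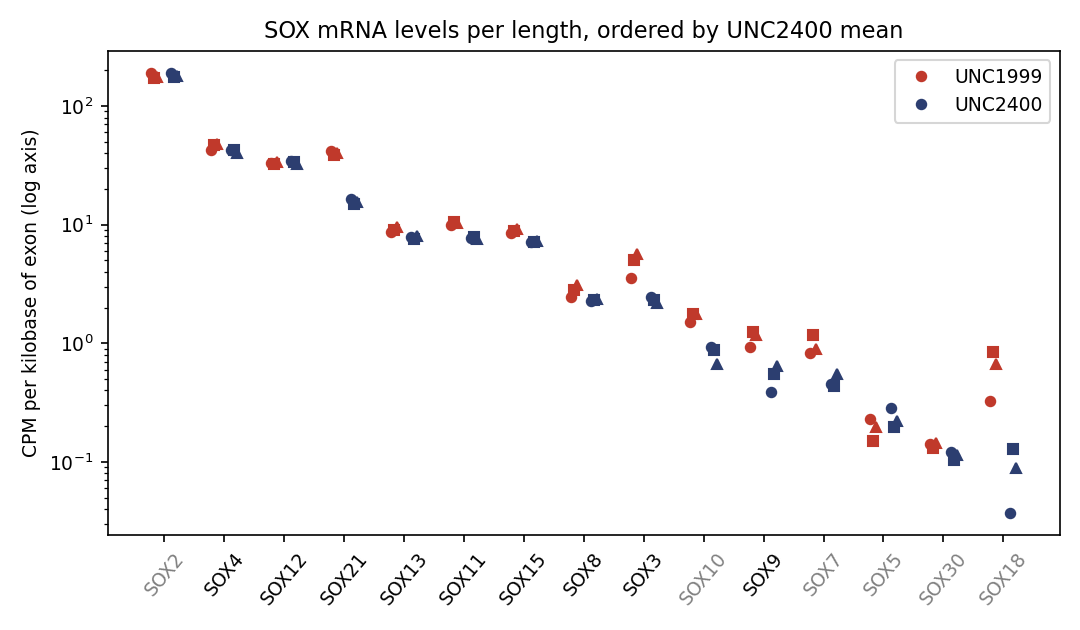
CPM per kilobase of exon (log axis) of the SOX genes with at least 0.05 CPM per kilobase in UNC2400, ordered by that mean, with 1 point per library (circle, square and triangle for replicates 1 to 3; red UNC1999, blue UNC2400). SOX2 stands at about 180 in both groups, and SOX21 moves past SOX12 in UNC1999.

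As a share of all SOX transcripts per length, SOX21 took 12.0%, 11.7% and 11.9% in UNC1999 replicates 1 to 3, against 5.23%, 5.09% and 5.26% in UNC2400. SOX2 took 53.0% ± 1.98 in UNC1999 and 60.0% ± 0.815 in UNC2400 (SD, n = 3 each). SOX4 held 13.5% ± 0.942 in UNC1999 and 13.9% ± 0.525 in UNC2400 (SD, n = 3 each). The share of SOX21 was 6.67 points higher in UNC1999, and that of SOX2 fell by 7.01 points.

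Across the 9 tested genes, 8 were called higher in UNC1999 and 0 lower. A call here is an adjusted p under 0.05 in edgeR's quasi-likelihood test, Benjamini-Hochberg adjusted over all 17596 genes tested. Over all tested genes 52.7% were called, 26.8% as higher and 25.9% as lower. The 9 genes had a median log2 fold change of 0.29, and all tested genes one of 0.02. Since the genes were chosen with this contrast known, nothing is read from their count. The genes fell into a set near 2-fold or above (SOX21, SOX9 and SOX3) and a set of small differences, from 1.10-fold to 1.34-fold (SOX11, SOX15, SOX8, SOX13 and SOX4). In bulk RNA, more cells of a type and more RNA per cell cannot be told apart.

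**Figure D2:**
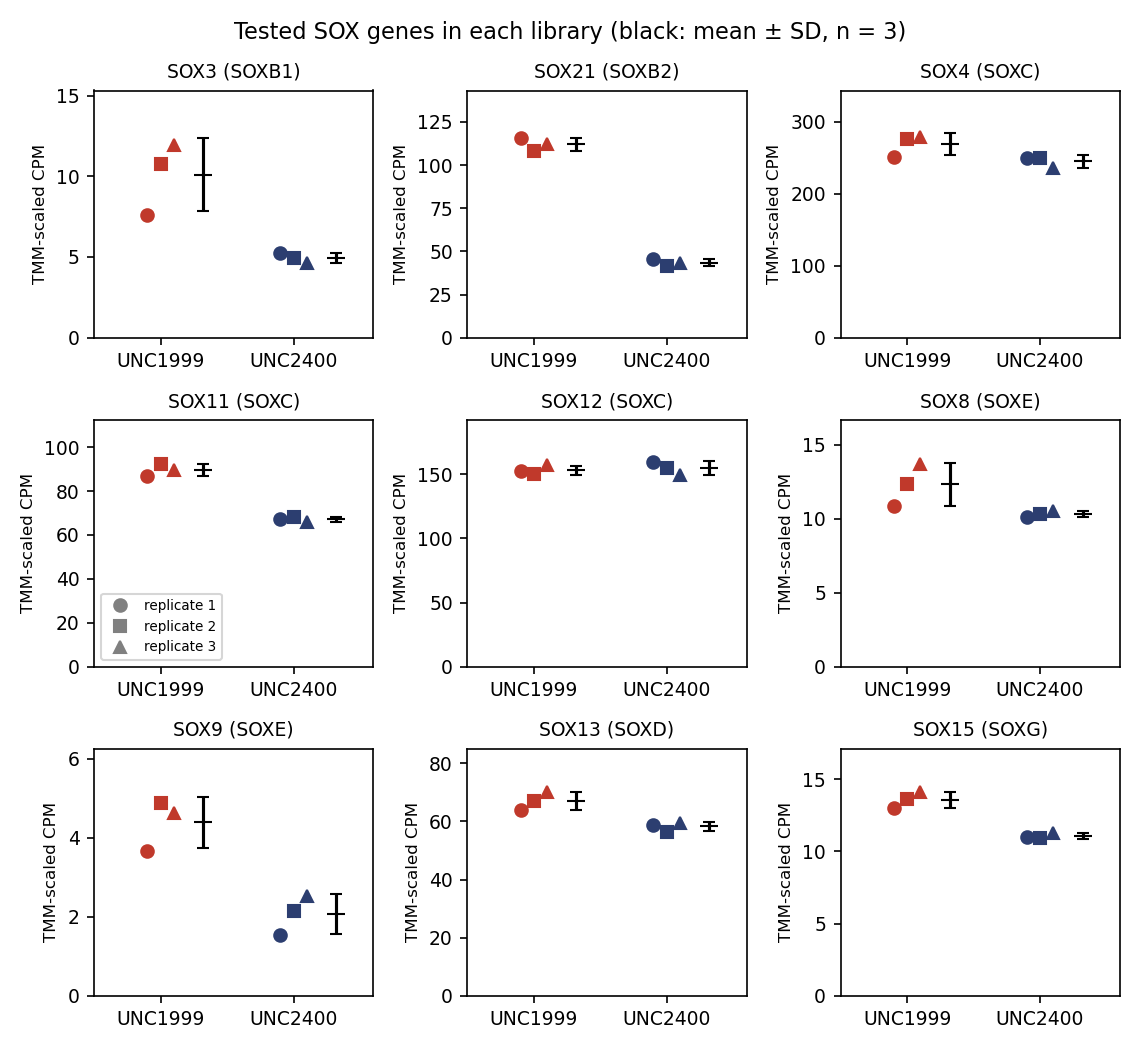
TMM-scaled CPM of the 9 tested genes in each library, from 0, with 1 panel per gene, UNC1999 in red and UNC2400 in blue, and the mean ± SD (n = 3) in black beside each group. The groups are far apart for SOX21, SOX3 and SOX9, close for SOX4, SOX8 and SOX13, and overlap for SOX12.

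SOX21, the SOXB2 repressor, had 116, 108 and 112 CPM in UNC1999 replicates 1 to 3, against 45.5, 41.7 and 43.3 CPM in UNC2400. The libraries within each group lay close together and the groups were far apart. The difference was 2.58-fold (log2 1.37 ± 0.05, SE). The RNA gene SOX21-AS1 starts 171 bases upstream of the SOX21 start and runs the opposite way, so that its start lies inside the window printed above. It had 33.2, 29.7 and 31.5 CPM in UNC1999, against 14.0, 14.4 and 13.3 CPM in UNC2400. It was also higher in all UNC1999 libraries, by 1.18 ± 0.07 (log2, SE).

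SOX3, the X-linked SOXB1 gene of neural and pituitary progenitors, had 7.57, 10.8 and 12.0 CPM in UNC1999, against 5.28, 4.91 and 4.64 CPM in UNC2400. UNC1999 replicate 1 was well below the other UNC1999 libraries but above all UNC2400 libraries. The log2 fold change was 1.03 ± 0.14 (SE), and 1.18 without that library. SOX1, an early marker of neuroectoderm, had 1, 3 and 0 counts in UNC1999 replicates 1 to 3, against 1, 0 and 0 counts in UNC2400. Scaled for depth, the ratio was 3.89 (95% counting interval 0.385 to 192), a range that includes equal levels. A count of 0 allows up to 3 counts, or 0.0718 to 0.104 CPM per library. These intervals and limits cover counting error only, since reads are not independent molecules. The SOXB1 genes were thus far apart in level: SOX2 at 452 and 455 CPM in UNC1999 and UNC2400, SOX3 at 10.1 and 4.94 CPM, and SOX1 at the limit of detection.

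SOX11, a SOXC factor of immature neurons, had 86.9, 92.5 and 89.5 CPM in UNC1999, against 67.5, 68.2 and 65.7 CPM in UNC2400. The difference was 1.34-fold (log2 0.42 ± 0.05, SE), and 0.11 with no call under the offsets for gene span and GC content that are described further on. SOX4, the most abundant of the 10 genes, had 252, 276 and 279 CPM in UNC1999, against 249.6, 250.3 and 235 CPM in UNC2400. UNC1999 replicate 1 lay barely above the highest UNC2400 library. Its log2 fold change was 0.13 ± 0.05 (SE), and 8 of 13 alternatives ended the call, among them leaving out any library except UNC1999 replicate 1 (0.09 to 0.16 over the libraries left out). With those offsets it was called lower instead, at -0.20. SOX12, the remaining SOXC gene, had 152, 150.1 and 157 CPM in UNC1999, against 159.9, 155 and 149 CPM in UNC2400. Its groups overlapped, and the log2 difference was -0.01 (95% interval -0.12 to 0.09).

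SOX9, the SOXE factor of cartilage, neural crest and testis, had 3.66, 4.89 and 4.63 CPM in UNC1999, against 1.53, 2.16 and 2.52 CPM in UNC2400. It rested on 455 counts in UNC1999 and 210 counts in UNC2400, and the spread within both groups was wide. The log2 fold change was 1.08 ± 0.18 (SE). SOX8, the related SOXE gene, had 10.9, 12.4 and 13.7 CPM in UNC1999, against 10.1, 10.3 and 10.5 CPM in UNC2400. The UNC2400 libraries were tight, and UNC1999 replicate 1 lay just above them. Its log2 fold change was 0.25 ± 0.10 (SE), and 8 of 13 alternatives ended the call. Without UNC1999 replicate 3 it was 0.15, and without UNC1999 replicate 1 it was 0.32.

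SOX13, a SOXD factor, a subgroup that lacks a transactivation domain of its own, had 64.1, 67.1 and 70.2 CPM in UNC1999, against 58.9, 56.5 and 59.4 CPM in UNC2400. It was higher by 0.21 ± 0.05 (log2, SE). SOX15, the single SOXG gene, had 13.0, 13.6 and 14.1 CPM in UNC1999, against 11.0, 10.9 and 11.3 CPM in UNC2400. It was higher by 0.29 ± 0.08 (log2, SE). For both, all UNC1999 libraries lay above all UNC2400 libraries, as they did for 30.9% of all tested genes.

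**Figure D3:**
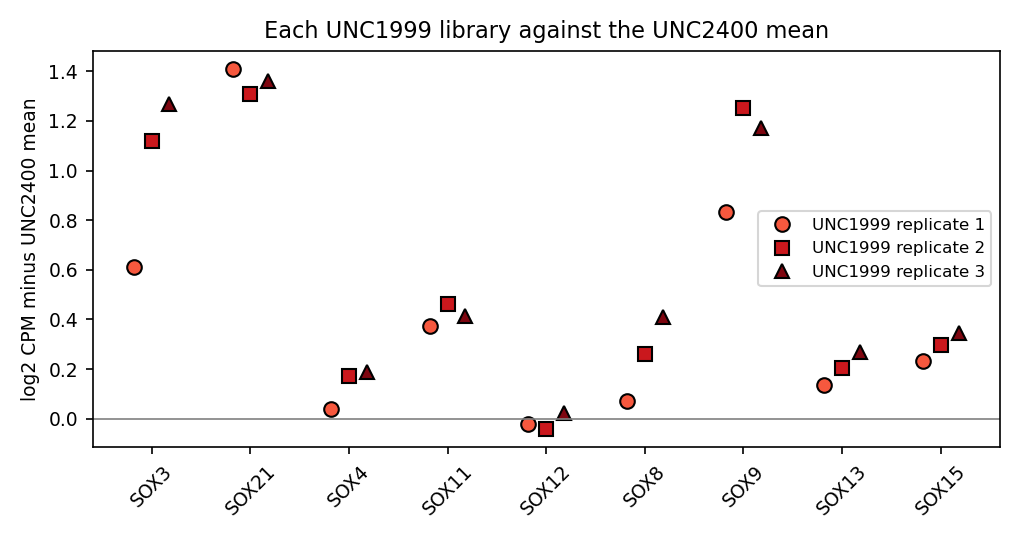
Log2 CPM (prior count 2) of each UNC1999 library minus the UNC2400 mean, for the 9 tested genes. UNC1999 replicate 1 has the smallest difference for SOX3, SOX4, SOX11, SOX8, SOX9, SOX13 and SOX15 and the largest for SOX21.

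The UNC1999 libraries did not move alike. UNC1999 replicate 1 had the smallest difference from the UNC2400 mean for 7 of the 8 genes called higher. The share over all tested genes was not computed, so this is not read as a trait of the SOX genes. Outside these genes, TWIST1 and NGFR also had their smallest difference in that library, and SOX2-OT its largest. For SOX3 it was 0.61, against 1.12 and 1.27 in UNC1999 replicates 2 and 3, and for SOX9 0.83, against 1.25 and 1.17 (log2). SOX21 went the other way, with 1.41 in UNC1999 replicate 1 and 1.31 and 1.36 in the others. Without UNC1999 replicate 1, 8 of the 9 genes were called higher and 0 lower. Over all 18004 genes tested in that fit, 4925 were called higher and 5151 lower.

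Gene length and base composition moved with the result. The SOXB and SOXC genes listed here have a single exon, spanning 2132 bases (SOX3) to 8719 bases (SOX11), while SOX13 has 14 exons over 54629 bases. With smooth offsets for genomic span and transcript GC content in each library, which cover 84.3% of tested genes, 4 of the 9 genes were called higher (SOX21, SOX3, SOX9 and SOX13) and 2 lower (SOX4 and SOX12). SOX21 then differed by 1.06, SOX3 by 0.81, SOX9 by 0.74 and SOX13 by 0.29 (log2). SOX4 turned to -0.20 and SOX12 to -0.23, and SOX11, SOX8 and SOX15, at 0.11, 0.06 and 0.07, were no longer called. SOX2 went to -0.36 and was called lower. Over all genes the offsets shifted the median to -0.06. Of 14835 genes tested with them, 2887 were called higher and 4538 lower, against 4714 and 4554 of 17596 without them. The counts of SOX genes are to be read beside these. These offsets were fitted to each library's deviation from the mean of all 6 libraries. They therefore also remove any difference between the compounds that genes of like span and GC content share. The direction of SOX4 and the calls of SOX12 and SOX2 thus differ with this choice, and the part of span or GC content in them was not tested further.

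**Figure D4:**
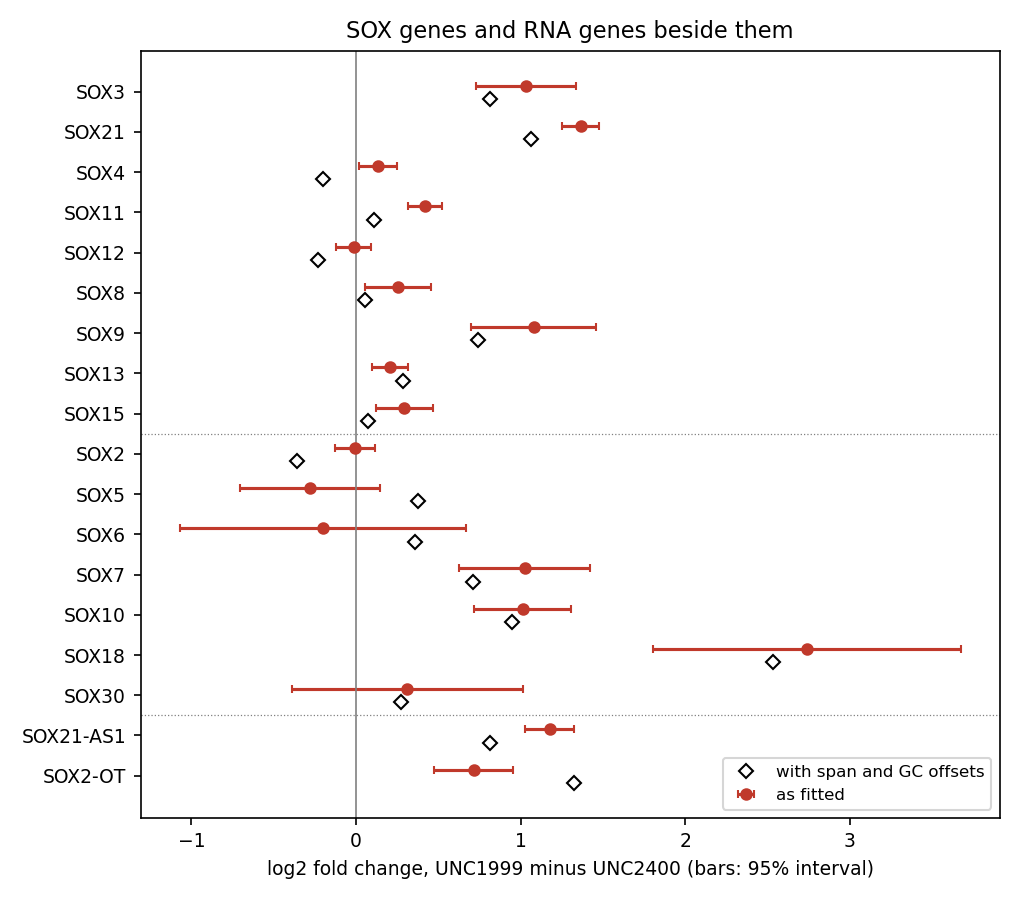
Log2 fold change, UNC1999 minus UNC2400, of the tested SOX genes and of RNA genes beside them; red points with 95% intervals are as fitted and open diamonds are with span and GC offsets. SOX21, SOX3, SOX9, SOX7, SOX10 and SOX18 stay to the right of 0 both ways, while SOX4, SOX5 and SOX6 change side.

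Of the other 9 SOX genes, 7 were tested, of which 3 were called higher and 0 lower, beside 26.8% and 25.9% of all tested genes. SOX10, the SOXE partner of SOX8 and SOX9 in neural crest and glia, had 6.21 ± 0.501 CPM in UNC1999 and 3.07 ± 0.51 CPM in UNC2400 (SD, n = 3 each), and was higher by 1.01 ± 0.14 (log2, SE). The SOXF genes SOX7 and SOX18, factors of endothelium, were higher by 1.02 ± 0.19 and 2.74 ± 0.44 (log2, SE). SOX18 rested on 21, 55 and 42 counts in UNC1999 and 2, 10 and 5 counts in UNC2400, a level that passes the low-count filter through UNC1999. SOX17, the endoderm member of SOXF, had 4 counts in UNC1999 and 2 in UNC2400 and was not tested, nor was SOX14. For SOX2 the log2 difference was -0.01 (95% interval -0.13 to 0.11). SOX5, SOX6 and SOX30 had log2 differences of -0.28, -0.20 and 0.31 and were not called. SOX2-OT, an RNA gene that contains SOX2 within its span, was higher by 0.71 ± 0.11 (log2, SE). Its exons and those of SOX2 lie on 1 strand, so reads may be shared.

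Overlapping genes limit some of these values. In GENCODE release 29, SOX9 overlaps SOX9-AS1 on the opposite strand, SOX15 overlaps MPDU1, SOX12 overlaps NRSN2-AS1 and SOX10 overlaps POLR2F. SOX4 overlaps an RNA gene on the opposite strand. SOX11 overlaps an RNA gene and SOX7 overlaps PINX1 on the same strand, where the strand of a read does not part them. The libraries mark strand, but no source used here gives the strand setting of the counting, and without it reads of the pairs on opposite strands cannot be told apart. SOX21, SOX3, SOX8, SOX13 and SOX1 overlap no annotated gene.

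The authors' deposited table of log2 fold changes holds the 9 tested genes. The authors' deposited table gives 1.35 for SOX21, 1.05 for SOX9, 1.01 for SOX3, 0.40 for SOX11 and -0.03 for SOX12, positive where UNC1999 is higher. For the 9 genes, values in the authors' deposited table minus those from the counts were -0.02 to -0.03 (log2).

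Genes of the lineages in which SOX factors act did not move as a block. A listed gene near 0 in UNC2400 reaches the test only if UNC1999 is higher, so the counts that follow are partly set by the low-count filter. Of 17 neural progenitor genes, 14 were tested, with 6 called higher and 0 lower, where 26.8% of all tested genes were called higher and 25.9% lower. The filament genes NES and VIM stood at 430 ± 19.6 and 146 ± 18.9 CPM in UNC1999 and at 232 ± 7.49 and 73.2 ± 3.8 CPM in UNC2400 (SD, n = 3 each). The homeobox gene OTX2 rose by 0.96 ± 0.07, and POU3F1, a POU factor of the group that partners SOXB1 proteins, by 0.71 ± 0.10 (log2, SE). PAX6, a defining factor of neuroectoderm, had 1.45 CPM in UNC1999 and 1.36 CPM in UNC2400, with no call. Of 14 genes listed for early neurons, the setting of SOX4 and SOX11, 12 were tested, with 1 called higher and 7 lower (26.8% and 25.9% over all tested genes). The 7 include TEAD2, a TEAD transcription factor gene, whose libraries overlapped between the groups at a log2 fold change of -0.18. STMN2, a microtubule regulator, was the one called higher (1.93 ± 0.14, log2, SE). MAP2, NCAM1 and GAP43 fell by 1.07 ± 0.20, 0.95 ± 0.13 and 0.89 ± 0.07 (log2, SE), and TUBB3, a target of SOX11 in neurons, had a log2 fold change of -0.09 and no call.

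Cartilage genes were lower or not called while SOX9 was higher. Of 13 listed, 12 were tested, with 0 called higher and 7 lower (26.8% and 25.9% over all tested genes), and their median log2 fold change was -0.56. COL2A1, the cartilage collagen gene that SOX9 activates in chondrocytes, had 2.03 ± 0.235 CPM in UNC1999 and 5.41 ± 1.37 CPM in UNC2400 (SD, n = 3 each). COL9A1, COL11A2 and COL11A1 fell by 1.52 ± 0.12, 1.02 ± 0.21 and 0.97 ± 0.09 (log2, SE). ACAN, the aggrecan gene and another target of SOX9 in cartilage, had 4.81 CPM in UNC1999 and 5.51 CPM in UNC2400, with no call. Of 17 neural crest genes, 11 were tested, with 5 called higher and 3 lower (26.8% and 25.9% over all tested genes). TWIST1 had 14.6 ± 4.15 CPM in UNC1999 and 0.752 ± 0.14 CPM in UNC2400 (SD, n = 3 each). The receptor gene NGFR and the zinc finger gene SNAI1 rose by 1.49 ± 0.16 and 0.79 ± 0.15, and FOXD3, an early neural crest and pluripotency factor, fell by 0.92 ± 0.11 (log2, SE). TFAP2A, TFAP2B, SNAI2 and PAX7, defining factors of neural crest, were too low to test.

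Markers of other cell types gave no shared direction. The 9 fibroblast markers summed to 181 to 197 CPM in UNC1999 and 271 to 302 CPM in UNC2400, with LUM, DCN and FAP near 0 in both groups. Of 5 tested, 1 was called higher (PDGFRB, whose groups overlap) and 4 lower. For this and the marker counts that follow, 26.8% of all tested genes were called higher and 25.9% lower. The 8 endothelial markers, among them SOX7 and SOX18, had 2 called higher and 3 lower of 6 tested. The 2 called higher were SOX7 and SOX18 themselves. The vessel receptor genes TIE1, TEK and KDR fell by 1.28 ± 0.14, 0.92 ± 0.19 and 0.42 ± 0.06 (log2, SE), and CDH5 was near 0. Trophoblast markers summed to 2.87 to 3.33 CPM in UNC1999 and 2.88 to 3.66 CPM in UNC2400. Those of definitive endoderm summed to 5.02 to 8.08 CPM in UNC1999 and 3.26 to 3.78 CPM in UNC2400, and of 4 tested, CXCR4 and GATA4 were called higher and 0 lower. The part of such cells in the SOX values was not tested.

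The genes whose profile over the 6 libraries was most like that of each of the 3 members with the largest differences were sought among 13235 genes whose mean log2 CPM reached 1. Likeness was the root mean square difference between centred log2 CPM profiles. For SOX21 they were RP11-244F12.3 (0.0659), MARVELD1 (0.083) and LINC00086 (0.094). For SOX3 they were the growth factor gene HBEGF (0.0613), C7orf13 (0.071) and C12orf76 (0.0717). For SOX9 they were the pseudogene RPL13P5 (0.0831), whose reads may come from other copies, the homeobox gene IRX3 (0.0862) and RAB3IL1 (0.113). No member of the SOX family was among them. The members were picked for their difference between the compounds, and genes alike in profile share that difference, so nothing is read from this absence.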

How the data were processed

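RNA-seq libraries of H9 cells, 3 per compound, were grouped and numbered from the sample titles. Whether replicates were separate cultures is not stated, so p-values cover only the variation among these libraries, which may be technical. The authors deposited whole-number counts per gene name, not normalized. Per the submitters' processing notes, the tools were Trim Galore 0.4.0, TopHat2 2.0.13, Subread 1.5.0 and featureCounts, and the build was hg19. Not given in the sources used here are annotation, strand setting and treatment of multiply matching reads. Deposited log2 expression values, marked by the authors as normalized and batch-corrected, were not used. Their deposited comparison table has log2 fold changes, p-values and scores in columns named as in limma, per the file headers.

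Counts were tested with edgeR 4.0.16 (R 4.3.3, quasi-likelihood F test, group only, TMM factors, default low-count filter). This fit, but not the other steps, was tested on simulated data with the same dispersion for all genes. Log2 fold changes are UNC1999 minus UNC2400. The 10 genes and all gene lists were chosen with earlier results of these data known. List genes were named by a rule: up to 4 called genes with the largest fold change among those whose mean log2 CPM reached 1. Others (PAX6, TUBB3, ACAN, TFAP2A and the like) were picked after their values were seen. Older symbols were matched through RefSeq synonyms. Exon lengths, spans and GC values were taken from GENCODE release 29, matched on gene name. Alternatives were RLE and upper-quartile scaling, no low-count filter, DESeq2 1.42.0, limma-voom (limma 3.58.1), a replicate block, span and GC offsets fitted with mgcv 1.9.3, and leaving out each library.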

Additional observations from a re-analysis of the deposited data

How the results depend on the processing

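SOX21, SOX3, SOX9 and SOX13 were called higher in all 13 alternatives, with log2 fold changes of 1.06 to 1.39, 0.81 to 1.18, 0.74 to 1.22 and 0.15 to 0.29. SOX11 and SOX15 were called in 12, all except the span and GC offsets. SOX8 was called higher in 5, and SOX4 was called higher in 4 and lower in 1. With the span and GC offsets, 4 of the 9 tested genes were called higher, 2 were called lower, and SOX4 reversed to -0.20. Over all genes, 2887 were then called higher, 4538 lower and 7425 in all, of 14835 tested. The fit as reported had 4714 higher, 4554 lower and 9268 in all, of 17596 tested. Calls lower thus hardly changed while calls higher fell, and the cause was not tested. Leaving out 1 library gave 6 to 8 of the 9 genes called higher and 0 lower. Over all genes these fits called 7747 to 10076, of which 3642 to 4925 were higher, with 17815 to 18176 tested. RLE scaling gave 7 of the 9 called higher, DESeq2 gave 6 and no low-count filter gave 6. Over all genes, RLE scaling called 4498 higher and DESeq2 4057, of 17596 tested. No low-count filter called 4304 higher of 36090. The sum of the 10 genes over SOX2, per length, was 1.32-fold higher in UNC1999, and 1.29-fold to 1.38-fold when 1 library was left out. Most of the rise in that sum was SOX21.

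Same-numbered libraries had correlations of 0.0237, 0.0839 and 0.124 in their deviations from the group means, not all above the 0.1 set for treating the numbers as pairs. That 5 of the 6 libraries correlated best with their own number (all except UNC2400 replicate 1) is a hint of pairing. The sample titles use the same replicate numbers in both groups, and the authors marked deposited values as batch-corrected. No source used here says that same-numbered libraries are pairs. With the replicate block, 8 of the 9 genes were called higher. Over all 17596 genes, 4867 were then called higher and 9562 in all. The list counts were recomputed under the same alternatives, a step chosen after seeing the data. Cartilage genes had 0 higher and 6 to 7 lower, and neural progenitor genes 6 to 7 higher and 0 to 1 lower. Early neuron genes had 1 to 2 higher and 6 to 8 lower, and neural crest genes 5 higher and 3 lower in each. Depth limits SOX1, SOX14 and SOX17, each with under 10 counts.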
